A study of Homo sapiens with 6 samples.

Results

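In IMR-32 cells, an established human neuroblastoma line, the places at which polyadenylated transcripts ended were examined in 10 genes of the neuronal cytoskeleton and the growth cone. These were MAP1B, MAP2, MAPT and DCX (microtubule-associated proteins), STMN1, STMN2 and STMN4 (stathmins), NEFL and NEFM (neurofilament subunits) and GAP43 (a growth cone protein). They were chosen by name as genes of these families. Their peaks were all peaks of the deposited list whose summit lay in the gene body or up to 4 kb past its 3′ end. By this rule 160 of the 200023 listed peaks belonged to the 10 genes, out of 20033 protein-coding genes. Of the 160 peaks, 113 (70.6%) reached a −log10 q of at least 5, and 69.3% of the whole list did. The study used this cutoff when it picked peaks specific to a treatment. There it also asked for a minimum of reads and a difference between treatments, which are not applied here. The 113 peaks are described below unless all listed peaks are named.

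The study prepared poly(A) 3′-end libraries from IMR-32 cells treated with the solvent DMSO (n = 2), with 400 nM THZ531 for 2 h (n = 2) or with 400 nM THZ531 for 6 h (n = 2). THZ531 is a covalent inhibitor of the transcriptional kinases CDK12 and CDK13, and the study asked how their loss of activity affects where transcripts end. The authors merged the samples before they called peaks, so each peak has 1 value for all treatments and the list gives no strand. The treatments therefore cannot be compared here, replicate error is not known for any peak, and neither is the depth of each library.

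Microtubules are stiffened and spaced by microtubule-associated proteins, are destabilised by stathmins, which bind free tubulin, and run beside neurofilaments, which set the calibre of an axon. At the tip of a growing axon the growth cone couples these filaments to the membrane, where GAP43 is anchored. Many messenger RNAs of neurons have long 3′ untranslated regions (UTRs) and alternative polyadenylation sites. Cleavage normally follows shortly after a hexamer such as AATAAA, the polyadenylation signal, and a site inside an intron yields a shortened transcript.

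Each sequencing read began at a 3′ end, so the edge of a peak that points towards the 3′ end of the gene (the 3′ edge) lies at the start of its most downstream reads. A wide peak can hold several ends, so the edge need not be the end of the reads at the summit. Over the 113 peaks the edge lay a median of 71 bp from the summit, and it lay over 100 bp away at 20 of them. The sequences at that edge are shown for 6 of the 10 genes, since they carry the features on which the peaks are compared: a signal hexamer before the edge and runs of A after it. Around the tallest peak at an annotated transcript end, 30 bases are given, with the hexamer nearest the edge in capitals. For MAP1B the last annotated end is added, chosen after its values were seen. In the tallest end peaks of MAP2, MAP1B, GAP43 and STMN1 the edge lay 344, 245, 153 and 150 bp downstream of the summit, so these windows show the far edge of a wide peak and not the place of most reads. For MAP2 the summit lay inside the annotated 3′ UTR. The capital hexamer began 75 bases before the edge in STMN1, 52 in MAPT and 35 in the tallest end peak of MAP1B. In the other windows it began 19 to 25 bases before the edge. All are from GRCh38, 5′ to 3′ on the strand of the gene.
MAP1B, tallest end peak, coding part of a long exon, chr5:72195642-72195671, plus strand: gaagagtctgtcAAGAAAgattctgttgct
MAP1B, last annotated end, 3′ UTR, chr5:72209531-72209560, plus strand: actcagttccacAATAAAatacaaaagtgg
MAP2, far edge of the tallest end peak, past the annotated 3′ UTR, chr2:209734371-209734400, plus strand: acaaaaattctaATTAAAcgggcttaaacg
MAPT, tallest end peak, 3′ UTR, chr17:46024389-46024418, plus strand: gggtgggctagtAATAAAatatttaaaaaa
STMN1, tallest end peak, 3′ UTR, chr1:25900521-25900550, minus strand: ttgagttaggttAATAAAtcaagccataga
GAP43, tallest end peak, 3′ UTR, chr3:115721450-115721479, plus strand: aacccgaatattAATAAAtcatgagagtaa
DCX, tallest end peak, 3′ UTR, chrX:111293781-111293810, minus strand: tcattttccaaaAATAAAatttgatttcaa

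For the tallest intronic peak of 5 of these genes, 100 bases are given: the first 60 run up to and include the 3′ edge and the other 40 follow it. Capitals mark every match to the 12 hexamers in the first 60 bases. These windows overlapped no annotated exon of the gene.
MAP1B, intron 2, chr5:72130122-72130221, plus strand: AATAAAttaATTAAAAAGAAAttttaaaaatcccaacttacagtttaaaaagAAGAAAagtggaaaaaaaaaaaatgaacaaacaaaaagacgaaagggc
MAP2, intron 3, chr2:209585361-209585460, plus strand: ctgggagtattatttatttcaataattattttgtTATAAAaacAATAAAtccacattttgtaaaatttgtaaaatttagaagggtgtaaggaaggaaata
STMN1, intron of the longest transcript, chr1:25898209-25898308, minus strand: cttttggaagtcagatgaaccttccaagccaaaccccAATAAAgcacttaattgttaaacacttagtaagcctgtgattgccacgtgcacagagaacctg
GAP43, intron 1, chr3:115659600-115659699, plus strand: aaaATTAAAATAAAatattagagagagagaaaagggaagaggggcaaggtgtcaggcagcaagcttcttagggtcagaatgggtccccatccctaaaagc
DCX, intron 3, chrX:111359223-111359322, minus strand: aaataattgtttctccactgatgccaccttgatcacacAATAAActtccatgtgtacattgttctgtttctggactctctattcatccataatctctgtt

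These windows differed among the genes, and they do not stand for all intronic peaks: all 5 hold a hexamer, as did 43 of the 71 intronic peaks. At the tallest intronic peak of MAPT, which is not shown, no hexamer was found. In MAP2, STMN1 and DCX an AATAAA began 17, 23 and 22 bases before the intronic edge. In GAP43 the nearest AATAAA began 52 bases before it. In MAP1B the hexamer nearest the edge was AAGAAA, 8 bases before it, and up to 21 of 25 bases downstream were A. A read primed on genomic A would also give a peak, and whether any peak arose in this way was not tested.

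Height is given as reads at the summit, the number of reads, each extended to 100 bp, that covered the summit in the pooled libraries. It was recovered from the deposited fold enrichment and −log10 p. The highest peak of the whole list had 200 reads, the ceiling if 1 read is kept per position and strand, so height is not transcript abundance and cannot be read as a level per gene. If it counts distinct start positions it can also grow with the width of a peak, so no order of use is read from the heights of different ends. The intervals given are 95% Poisson intervals and cover counting error only. If 1 read is kept per position and strand, heights have a ceiling, and a Poisson interval may not describe even their counting error. Overlap or separation of intervals is a description and not a test.

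The peaks of cell type markers were set beside the labelled cell type. All 13 markers of adrenergic neuroblastoma had a peak at a transcript end, with 19 to 123 reads at the tallest and a median of 55. Of 5 Schwann cell and glial markers 4 had such a peak, with 8 to 19 reads, and SOX10 also had a peak of 41 reads outside its annotated ends. Of 5 fibroblast markers 2 had a transcript-end peak, COL1A1 with 15 reads and FN1 with 20. The 4 blood markers had no peak. Over all protein-coding genes 64.1% had a transcript-end peak. Height is not a level per gene, so these values describe the markers and do not establish the cell type.

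Over the 10 genes, 71 of the 113 peaks were intronic (62.8%, with a 95% Wilson interval of 53.6 to 71.2). Annotated transcript ends, meaning 200 bp before to 600 bp after the end of any annotated transcript of the gene, held 23 (20.4%, 14.0 to 28.7). Other exonic sequence held 16 (14.2%, 8.91 to 21.8), and 3 lay past the gene (2.65%, 0.907 to 7.52). Over the peaks of all protein-coding genes the shares were 64.0% in introns, 20.2% at transcript ends, 10.3% in exons and 5.51% past the gene, and each lay inside the interval of the 10 genes. The 4 microtubule-associated protein genes held 79 of the 113 peaks, 56 of them intronic. The 3 stathmin genes held 21, the 2 neurofilament genes 8 and GAP43 5.

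**Figure D1:**
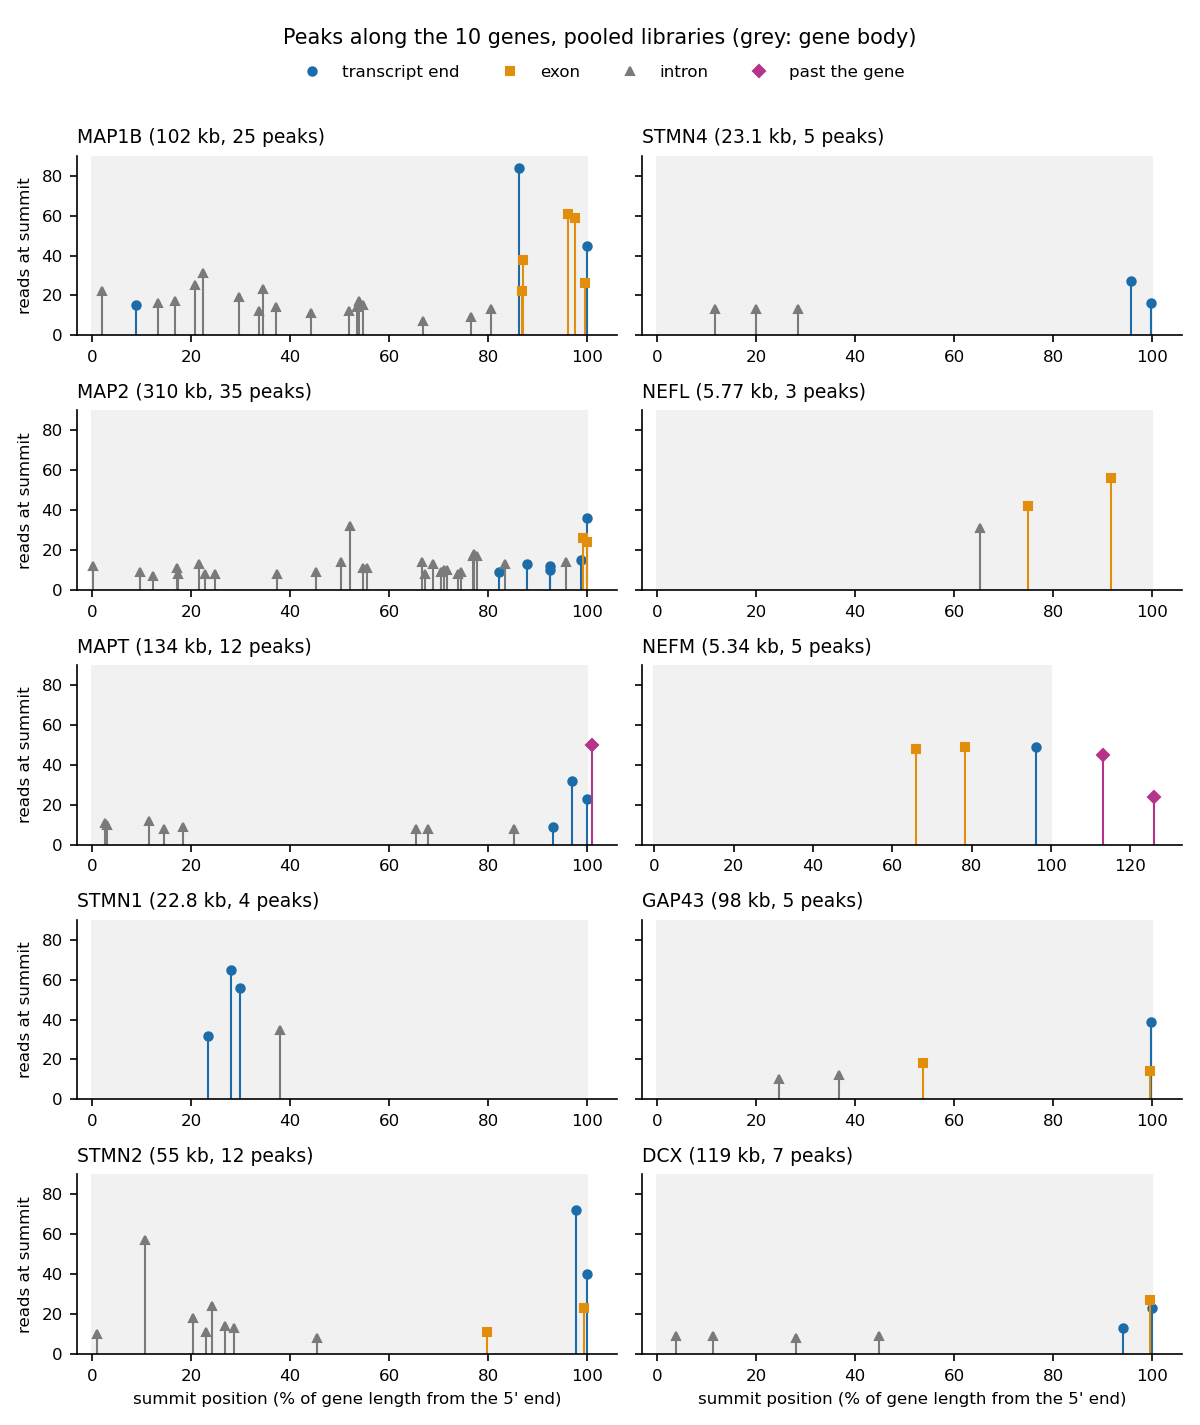
Each panel shows a gene, with the position of each peak summit as a percentage of the gene length from the 5′ end on the x axis and its reads at the summit on the y axis, for the 113 peaks of the pooled libraries. Symbols give the class of the peak and grey shading the gene body, and the tallest peaks stand near the 3′ end in most panels, except STMN1, where an annotated transcript runs far past the main ends, while MAP1B reaches 84 reads and DCX 27.

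Transcript-end peaks had a median of 27 reads in the 10 genes and 19 in all protein-coding genes, and intronic peaks a median of 12 in both. Exonic peaks had medians of 26.5 and 17 reads, and peaks past the gene 45, from 3 peaks, and 20. Median widths differed in the same way: 164 and 124 bp at transcript ends, 249.5 and 121 bp in exons, 410 and 125 bp past the gene. In introns they were 110 and 109 bp. Whether the heights differ beyond what width gives was not tested. In all, 9 of the 10 genes, those other than NEFL, had a transcript-end peak, as did 64.1% of all protein-coding genes. In those 9 genes the tallest such peak had a median of 39 reads, and over the 12832 detected genes (genes with at least 1 transcript-end peak) the median was 25. In 0 of the 9 was the tallest intronic peak at least as tall as the tallest transcript-end peak, and this held for 30.5% of detected genes with introns. With the end of the canonical transcript alone it was so in 1, STMN2, where the intronic peak had 57 reads and the canonical end 40. The Poisson interval of the tallest transcript-end peak lay above that of the tallest intronic peak in 4 genes, MAP1B, MAPT, STMN1 and GAP43. Such a separation was seen in 11.3% of detected genes with an intronic peak. In MAP2, STMN2, STMN4 and DCX the intervals overlapped. In MAP1B, MAPT, STMN1 and GAP43 the tallest transcript-end peak was also wider than the tallest intronic peak, whereas in STMN2 it was narrower. Height can grow with width, so neither the separations nor the count of 0 of 9 is read as a difference in use. Whether they would remain at equal width was not tested.

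**Figure D2:**
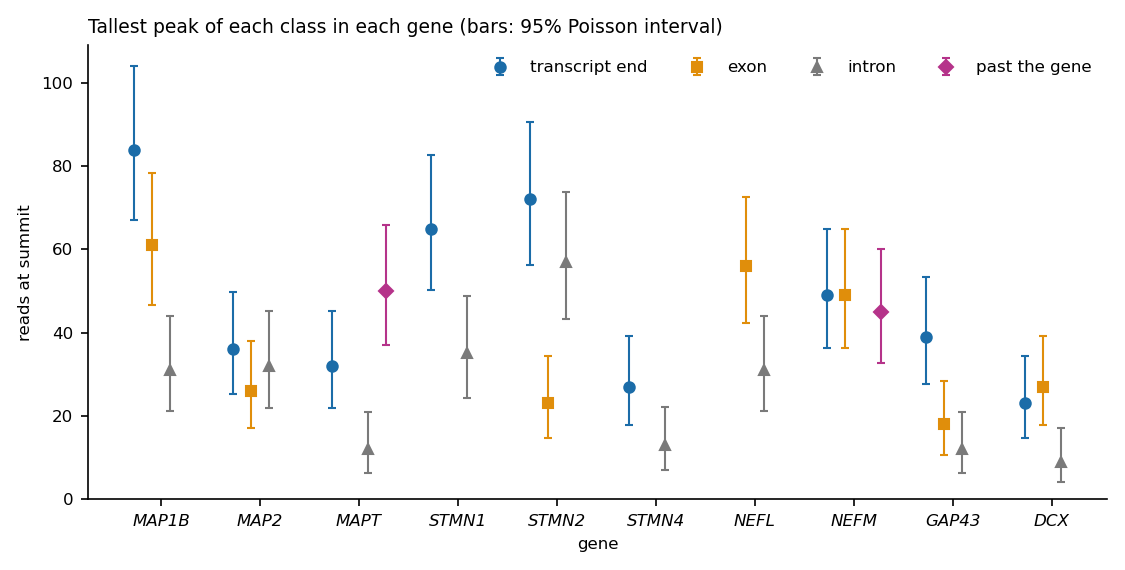
For each gene on the x axis, the point gives the reads at the summit of its tallest peak in each class (transcript end, exon, intron, past the gene), and the bar is the 95% Poisson interval. The transcript-end point is above the intronic point in every gene that has both, with the least distance in MAP2 (36 and 32 reads).

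MAP1B, which binds microtubules in growing axons and is made as a precursor cut into a heavy and a light chain, lies at chr5:72107234-72209565 (plus strand, 102 kb) and had 25 peaks. Its tallest peak, at chr5:72194994-72195688, had 84 reads (67.0 to 104), more than the tallest end peak of 99.6% of detected genes. This peak was 695 bp wide and height can grow with width, so its rank is not read as a level of the gene. It lay inside the large coding exon, with 31.5% of the canonical coding bases before its edge. It counts as a transcript end through 3 short annotated transcripts, of which 2 carry the annotation's tag for an end that was not found and the other is a nonsense-mediated decay transcript. The last annotated end, at chr5:72209414-72209562, 13874 bp downstream, had 45 reads (32.8 to 60.2), with AATAAA 20 bases before the edge.

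Between these places lay 5 more exonic peaks of MAP1B. Those in coding sequence, at chr5:72195850-72196126 and chr5:72196262-72196455, had 22 and 38 reads and no hexamer. Those in the 3′ UTR had 61 reads at chr5:72205514-72205863, 59 at chr5:72206567-72207056 and 26 at chr5:72209008-72209108, and AATAAA was found at that of 59 reads alone, 23 bases before the edge. The peaks of 61 (46.7 to 78.4) and 59 reads (44.9 to 76.1) and the annotated end had overlapping intervals. The 17 intronic peaks had 7 to 31 reads, and 14 of them lay in intron 2, which holds 75.2% of the canonical intron bases. All 17 lay where less than 10% of the coding bases had passed. An annotated end inside the same intron, chr5:72116011-72116264, had 15 reads (8.40 to 24.7).

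MAP2, the dendritic microtubule-associated protein, is the longest of the 10 genes (chr2:209424047-209734147, plus strand, 310.1 kb) and had the most peaks, 35, of which 27 were intronic. At its 3′ end the tallest peak, chr2:209733997-209734401, had 36 reads (25.2 to 49.8) and its edge lay 254 bp past the nearest annotated end. An annotated end 3883 bp before it, at chr2:209730419-209730518, had 15 reads (8.40 to 24.7) with AATAAA 22 bases before the edge. The distal peak was 405 bp wide and the proximal one 100 bp, so the difference in height is not read as a difference in use. Between them the 3′ UTR held peaks of 26 and 24 reads at chr2:209731229-209731350 and chr2:209733769-209733879. The last of these had 18 A in 25 bases downstream.

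The intronic peaks of MAP2 had 7 to 32 reads. The tallest, at chr2:209585138-209585420 in intron 3, had 32 reads (21.9 to 45.2), and the next had 18. Of the 27, 21 (77.8%) lay before any canonical coding base, 8 of them in intron 1 and 7 in intron 4. A hexamer was found at 13, AATAAA at 7, and 18 or more A in 25 bases downstream at 13. A pair of annotated ends inside intron 13, at chr2:209710474-209710575 and chr2:209710711-209710826, had 10 and 12 reads, and the latter had AATAAA 19 bases before its edge. Further annotated ends in coding exons, at chr2:209678535-209678636 and chr2:209696531-209696699, had 9 and 13 reads.

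MAPT, which encodes tau, the axonal microtubule-associated protein, lies at chr17:45894527-46028334 (plus strand, 134 kb) and had 12 peaks. In its last exon 2 annotated ends carried a peak: chr17:46024129-46024452 had 32 reads (21.9 to 45.2) and chr17:46028231-46028363, 3911 bp downstream, had 23 (14.6 to 34.5). These intervals overlapped. An annotated end in intron 12, at chr17:46018995-46019109, had 9 reads. The 8 intronic peaks had 8 to 12 reads, and 5 lay in intron 1, before any coding base. At 3 of those 5 another gene, a long noncoding RNA, was annotated at the summit, so the peak could not be given to MAPT alone.

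The tallest peak assigned to MAPT, with 50 reads (37.1 to 65.9) at chr17:46029915-46030324, lay 1662 bp past its end. KANSL1 ends there on the opposite strand, and the peak's left edge lay 1 base from that annotated end. The list has no strand, so the peak cannot be told apart from the end of KANSL1. Peaks past the gene were found in MAPT and NEFM, 2 of the 10 genes, and in 31.6% of detected genes.

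DCX, doublecortin, which binds microtubules in migrating neurons, lies at chrX:111293779-111412429 (minus strand, 119 kb) and had 7 peaks. Its last annotated end, chrX:111293778-111293900, had 23 reads (14.6 to 34.5) with AATAAA 21 bases before the edge, and up to 21 of 25 bases downstream were A. An upstream 3′ UTR peak at chrX:111294252-111294439 had 27 reads (17.8 to 39.3), and an alternative annotated end at chrX:111300633-111300811, 6855 bp before the last, had 13 (6.92 to 22.2). All 3 intervals overlapped. The 4 intronic peaks had 8 or 9 reads each, and each had an AATAAA 16 to 22 bases before the edge with at most 12 A in 25 bases downstream. In MAP2, 7 of 27 intronic peaks had AATAAA and 13 had 18 A. AATAAA was found at 4 of 8 intronic peaks in MAPT, at 4 of 8 in STMN2 and at 26.3% over all protein-coding genes. Among all listed peaks DCX had 9 intronic peaks, and some of those below the cutoff lacked a hexamer.

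STMN1 encodes stathmin, a tubulin-binding protein of proliferating and neuronal cells, and lies at chr1:25884181-25906991 (minus strand, 22.8 kb). It had 4 peaks, all tall. Its 3′ UTR ends at chr1:25900464-25900890 and chr1:25900091-25900357, with edges 373 bp apart, had 65 (50.2 to 82.8) and 56 reads (42.3 to 72.7), and these intervals overlapped. A peak of 32 reads in coding sequence, chr1:25901535-25901698, counted as a transcript end only through a transcript tagged as having no found end. The intronic peak, chr1:25898249-25898363, had 35 reads (24.4 to 48.7). Its edge lay 1867 bp past the nearest annotated end, inside an intron of a long transcript, with all canonical coding bases before it and AATAAA 23 bases before the edge.

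STMN2, which acts in axon growth and repair, had 12 peaks at chr8:79611117-79666158 (plus strand, 55.0 kb). Its 3′ UTR ends were chr8:79664882-79665247, with 72 reads (56.3 to 90.7), and chr8:79666050-79666181, 934 bp downstream, with 40 (28.6 to 54.5). The upstream peak was 366 bp wide and the downstream one 132 bp, so the difference in height is not read as a difference in use. A hexamer AATGAA lay 49 bases before the edge of the upstream end, and AATAAA lay 25 bases before that of the downstream end. Exonic peaks of STMN2 had 23 reads in the 3′ UTR, at chr8:79665730-79665839, and 11 in coding sequence, at chr8:79654805-79655054.

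All 8 intronic peaks of STMN2 lay in intron 1, with 3.54% of the coding bases before them. The tallest, chr8:79616751-79617205, had 57 reads (43.2 to 73.9), the highest intronic peak in the 10 genes, and the other 7 had 8 to 24. It had AATAAA 21 bases before the edge and at most 12 A in 25 bases downstream, and its edge was 47676 bp from the nearest annotated end. As background, intron 1 of STMN2 is known to hold a cryptic exon with its own polyadenylation site, which the RNA-binding protein TDP-43 normally keeps silent. The files used here give no position for that exon, and whether the peak is that site was not tested. Of the other 7, the peak of 24 reads at chr8:79624356-79624468 had no hexamer and up to 21 of 25 A downstream.

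STMN4, a stathmin of the brain, had 5 peaks at chr8:27235308-27258420 (minus strand, 23.1 kb). Its annotated ends chr8:27236287-27236412 and chr8:27235319-27235428, 968 bp apart, had 27 (17.8 to 39.3) and 16 reads (9.15 to 26.0), with overlapping intervals. The 3 intronic peaks all had 13 reads and lay in intron 1, before any coding base. An AATAAA stood 10 and 13 bases before the edge at 2 of them.

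NEFL, the light neurofilament subunit, was the only gene of the 10 without a transcript-end peak. It lies at chr8:24950955-24956721 (minus strand, 5.77 kb) and had 3 peaks. The tallest, chr8:24951254-24951617 in the 3′ UTR, had 56 reads (42.3 to 72.7). Its summit lay outside the transcript-end window, and its edge lay 299 bp before the annotated end. Another 3′ UTR peak, chr8:24952139-24952596, had 42 reads (30.3 to 56.8) with AATAAA 25 bases before the edge. A peak of 31 reads at chr8:24952897-24953033 spanned the boundary of intron 3 and the next exon and had no hexamer.

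NEFM, the medium neurofilament subunit, had 5 peaks and no intronic peak (chr8:24913758-24919098, plus strand, 5.34 kb). The annotated end, chr8:24918825-24919128, had 49 reads (36.3 to 64.8). Coding-exon peaks at chr8:24917207-24917603 and chr8:24917857-24918136 had 48 and 49 reads. Past the gene, chr8:24919393-24919877 had 45 reads and chr8:24920422-24920538 had 24 (15.4 to 35.7). The intervals of the first 4 overlapped, and the last had the fewest reads. It was also the member peak just inside the cutoff, with a −log10 q of 5.14, whereas just outside stood an intronic STMN2 peak of 7 reads with 4.89.

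GAP43, a membrane-anchored protein of the growth cone, lies at chr3:115623510-115721490 (plus strand, 98.0 kb) and had 5 peaks. Its annotated end, chr3:115721242-115721486, had 39 reads (27.7 to 53.3) with AATAAA 25 bases before the edge and at most 5 A in 25 bases downstream. A peak 435 bp before the annotated end, chr3:115720944-115721048, had 14 reads, no hexamer and up to 20 of 25 A downstream. At the start of the exon after intron 1, in coding sequence, chr3:115675932-115676180 had 18 reads (10.7 to 28.4) and no hexamer. The 2 intronic peaks had 10 and 12 reads, and at the taller a long noncoding RNA on the same strand was also annotated.

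Longer genes had more intronic peaks, and the 10 genes were set beside detected genes of their own length quartile. Of the 10, 9 had an intronic peak, as did 79.7% of detected genes with introns. In the longest quartile (over 85.2 kb), where the median gene had 13, MAP2 had 27 and 86.0% of genes had fewer. MAP1B had 17 (65.3% fewer), whereas MAPT had 8 (25.7% fewer), DCX 4 (11.4% fewer) and GAP43 2 (4.71% fewer). Lengths in that quartile ran to 2474 kb, so narrower bins of length were also used. In the bin of MAP2 (183 to 2474 kb) the median was 19 and the upper quartile 30. In that of MAP1B and GAP43 (71.1 to 108 kb) the median was 8 and the 10th to 90th percentiles ran from 2 to 15. MAP1B thus lay above the 90th percentile of that bin, but its length of 102 kb was also above the bin's median length of 86.9 kb. In the next bin (108 to 183 kb) the 90th percentile was 22. That bin holds MAPT and DCX, and its median was 12. STMN2 had 8 in a quartile with a median of 5, and STMN4 3 and STMN1 1 in a quartile with a median of 2. Per 10 kb of intron the values ran from 0 in NEFM, 0.208 in GAP43 and 0.369 in DCX to 1.89 in MAP1B and 5.47 in NEFL, which has 1.83 kb of intron and 1 such peak. MAP2 had 0.905. The median over the 10 genes was 0.799 and that over detected genes with at least 1 kb of intron was 0.994.

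**Figure D3:**
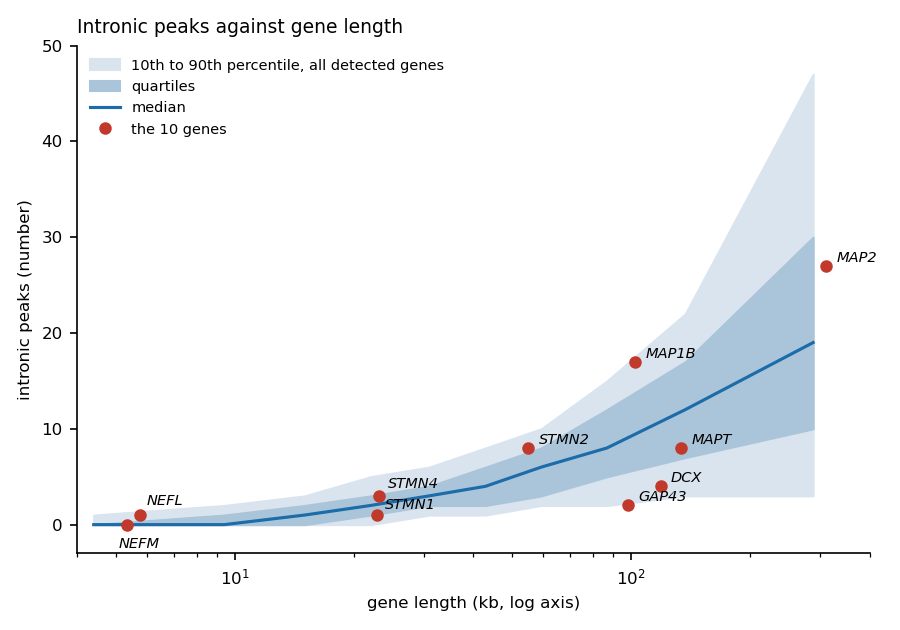
The number of intronic peaks (y axis) is plotted against gene length in kb (x axis, log scale) for the 10 genes (points) and for all detected genes with introns in 10 bins of length (line, median; bands, quartiles and 10th to 90th percentile, drawn between bin medians). MAP1B (17) and STMN2 (8) lie above the median line and GAP43 (2), DCX (4) and MAPT (8) below it.

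Of the 70 intronic peaks that lay in an intron of the canonical transcript, 27 (38.6%, 28.0 to 50.3) were in intron 1 and 18 (25.7%, 16.9 to 37.0) in intron 2, 14 of the latter in MAP1B. Over all protein-coding genes the shares were 31.6% and 15.2%. A transcript ending at 61 of the 71 (85.9%) would hold less than 10% of the canonical coding bases, and this share was 37.9% over all genes. MAP1B and MAP2 gave 43 of the 61, and both have their longest introns before most of the coding sequence. For DCX the share was 0 of 4, since its introns 2 and 3 lie after 33.2% and 64.2% of the coding bases.

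A polyadenylation hexamer was searched on the gene's strand in the 100 bp that end at the 3′ edge. The 12 hexamers searched were the canonical signal AATAAA and 11 known variants of it. The commonest variant is ATTAAA. Variants changed at the first base were CATAAA, then the form GATAAA, then the form TATAAA. Variants changed before or at the T were ACTAAA, then the form AGTAAA, then the form AAGAAA. Variants changed after the T were AATACA, then the form AATAGA, then the form AATATA, then the form AATGAA. Overlapping matches were all counted. At least 1 was found at 77 of the 113 peaks (68.1%, 59.1 to 76.0) and at 62.5% of the peaks of all protein-coding genes. AATAAA was found at 48 (42.5%, 33.8 to 51.7) and at 30.5%. At transcript ends 22 of 23 peaks had a hexamer, the exception being the MAP2 peak of 9 reads at a transcript tagged as having no found end, and 79.2% did over all genes. In introns 43 of 71 had a hexamer (60.6%, 48.9 to 71.1, all genes 57.0%) and 29 had AATAAA (40.8%, 30.2 to 52.5, all genes 26.3%). Where AATAAA was present, the nearest began 15 to 30 bases before the edge at 7 of 14 transcript-end peaks and 11 of 29 intronic peaks, and at 63.0% and 48.1% over all genes.

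The exonic peaks divided by position. Of the 10 in 3′ UTR sequence 8 had a hexamer (80%, 49.0 to 94.3) and 4 had AATAAA (40%, 16.8 to 68.7), and over all protein-coding genes the shares were 77.3% and 36.8%. Of the 6 in coding sequence 1 had a hexamer (16.7%, 3.01 to 56.4) and 0 had AATAAA (upper bound 39.0%), against 62.2% and 13.7% over all genes. The 6 lay in MAP1B, NEFM, STMN2 and GAP43, 2 of them in MAP1B and 2 in NEFM. Of the 6, 0 had 18 A in 25 bases downstream (2.97% over all genes). Coding-sequence peaks at an annotated end were classed as transcript ends and are not among the 6. Of those, the MAP1B peak of 84 reads and the MAP2 peak of 13 had AAGAAA. The STMN1 peak of 32 reads had AATAAA, and the MAP2 peak of 9 reads had no hexamer.

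The limit used by the study for an A stretch, 22 of 25 bases within 50 bp downstream, was met by 6 of the 113 peaks (5.31%, 2.46 to 11.1, all genes 4.01%). All 6 were intronic, 4 in MAP2 and 2 in MAP1B. The study discarded peaks that had such a stretch and lacked a hexamer. By the search used here the 2 in MAP1B had no hexamer. The same held for those of MAP2 at chr2:209642328-209642429 and chr2:209664868-209664971. These peaks were in the deposited list and are kept in the 113. At least 18 A were found at 31 (27.4%, 20.1 to 36.3, all genes 19.6%), of which 27 were intronic (38.0% of intronic peaks, 27.6 to 49.7, all genes 26.9%) and 13 lay in MAP2. With the window begun 25 bases before the edge, an alternative chosen after seeing the data, 46.5% of intronic peaks had 18 A (35.4 to 58.0), and the 42.2% over all genes then lay inside the interval. The 71 intronic peaks come from few genes, 44 from MAP1B and MAP2, and are not independent, so no test was made.

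**Figure D4:**
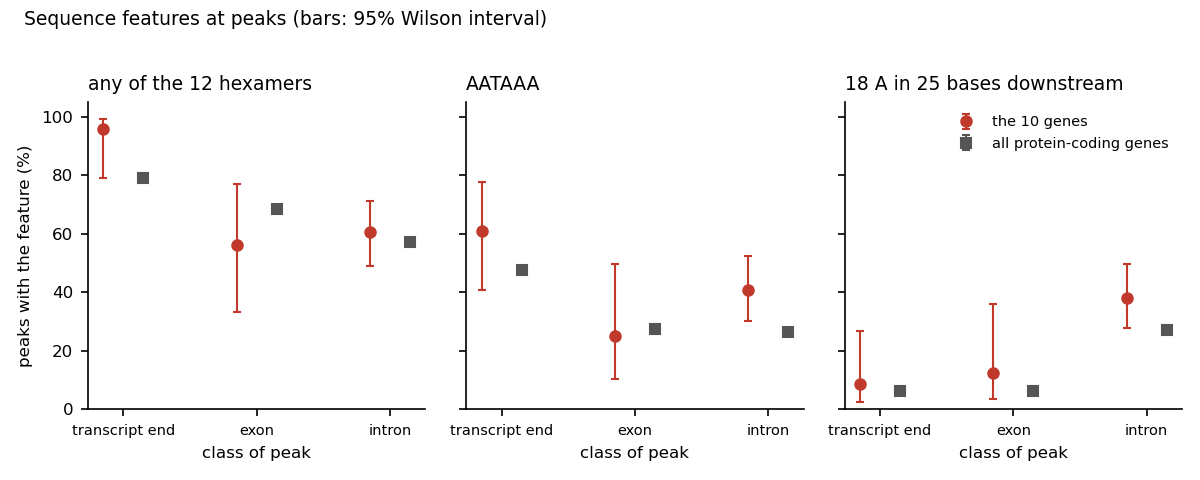
The 3 panels give the percentage of peaks (y axis) with any of the 12 hexamers, with AATAAA and with 18 A in 25 bases downstream, for peaks at transcript ends, in exons and in introns (x axis), in the 10 genes (circles) and in all protein-coding genes (squares), with 95% Wilson intervals. In the 10 genes the hexamer share was highest at transcript ends (95.7%) and the A-rich share in introns (38.0%).

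Of the 52 other genes in 5 cytoskeleton lists, 47 had a transcript-end peak, with a median of 35 reads at the tallest. In 11 of the 47 an intronic peak was at least as tall. Over all protein-coding genes 64.1% had a transcript-end peak, with a median of 25 reads at the tallest. An intronic peak was at least as tall in 30.5% of detected genes with introns. All 15 other microtubule-associated protein genes had a transcript-end peak (14 to 51 reads at the tallest, median 29). So did 13 of 14 growth cone and collapsin response mediator genes (median 46), 10 of 11 motor genes (median 27.5), 5 of 7 tubulin genes (median 84) and 4 of 5 other intermediate filament genes (median 31). In 5 of the 10 motor genes the tallest intronic peak was at least as tall as the tallest transcript-end peak. Tubulin genes are near-identical to each other and to their pseudogenes, so the placing of their reads is uncertain.

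Below the cutoff lay 47 further peaks of the 10 genes, 38 of them intronic, 5 at transcript ends and 4 exonic. With them MAP2 reached 53 peaks, MAPT 22, DCX 14 and GAP43 10.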

How the data were processed

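Poly(A) 3′-end sequencing (QuantSeq 3′ REV) was performed by the authors on 6 libraries of IMR-32 cells. Per the study's methods, reads were trimmed and mapped to GRCh38, with up to 20 placements kept, and peaks were called without a control after all samples had been merged, with each read extended to 100 bp. The submitters' processing notes name STAR 2.5.1b and MACS2 2.1.1. The setting for duplicate reads is not given in the sources used here. The deposited list gives for each peak a fold enrichment at the summit, a ratio of pileup to local background after 1 is added to each. It also holds the authors' −log10 p-value and −log10 q-value of the summit and the offset of the summit in the peak. The list has no value of a single library. 

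Pileup and background were solved from the deposited fold and −log10 p, which MACS2 computes as a Poisson tail. The largest misfit of −log10 p was 0.000172, and 22.2% of peaks had the lowest background, 0.337 reads. The recovery, the hexamer search and the classes were tested on simulated data. Genes were the 20033 protein-coding genes of Gencode release 44 on GRCh38, whereas the study used release 27. Coordinates are 1-based. Each summit took the first class that applied to a given gene: transcript end, exon of any transcript, intron, or past the gene. A peak inside several genes counted for each (14263 peaks). Over all genes the peak values are therefore over 134005 pairs of a peak and a gene. Introns were numbered in the canonical transcript.

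No test was made, because 1 pooled list has no replicates. Shares have 95% Wilson intervals and heights 95% Poisson intervals. The 10 genes and the gene lists were chosen with earlier results of these data known. All 10 genes were named, each with its tallest peak of every class, the peak farthest past its end and each annotated end in a canonical intron. Other peaks named were chosen after their values were seen. The sequence at the tallest intronic peak of MAPT is not reported here. Python 3.11.15 with pysam 0.24.0 and SciPy 1.17.1 was used.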

Additional observations from a re-analysis of the deposited data

How the results depend on the processing

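The 7 summary values of the 10 genes were recomputed 38 times in all, 5 of them under choices made after seeing the data (ends of transcripts tagged as having no found end left out, and a wider window for A), and 26 left the value inside its interval or within 1.5 times. At a −log10 q of at least 20, 24 peaks remained, with 12.5% in introns, 50% at transcript ends, 87.5% with a hexamer and 0% with 22 A, and 9 genes again had a transcript-end peak. With the canonical transcript alone, 7.96% of peaks lay at transcript ends, and in 1 gene, STMN2, the tallest intronic peak was at least as tall as the tallest end. The hexamer share was 42.5% with AATAAA only, 48.7% with AATAAA or ATTAAA, and 40.7% in the 100 bp that end at the summit. The A-rich share was 27.4% with at least 18 A, and 33.6% with the window begun 25 bases before the edge, where it was 31.4% over all genes. The number of intronic peaks of each gene moved by over 1.5 times in 21 of 40 recomputations, 9 of them at the stricter cutoff. No paired analysis was possible because each peak has 1 value for all libraries together, and no replicate could be left out. The intervals of the tallest transcript-end and intronic peaks overlapped in 4 genes. With the canonical end alone the intervals also overlapped in MAP1B, MAPT and STMN1. They cover counting error only, and the depth of each library is unknown.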
